A study of Rattus norvegicus with 52 samples.

Results

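The 8 milk protein genes of the rat gland were followed across 48 RNA-seq libraries of sorted rat mammary cells: the caseins Csn1s1, Csn1s2a, Csn1s2b, Csn2 and Csn3, and the whey proteins Wap, Lalba and Glycam1. They were taken by symbol, independently of their values, from the 17356 genes of the count files, and all 8 were found. The libraries compared rats that lack Cdkn1b, the gene of the cell cycle inhibitor p27, with wild-type rats, and control rats with rats given estrogen (E2). All Cdkn1b rats were ACI females whose mutation, a CRISPR/Cas9 deletion in exon 2, was made in Sprague-Dawley embryos and backcrossed onto ACI. The paper took glands for sorting from both an early and a later backcross generation. The labels do not say which generation or which of the deletion lines a library came from, so its Sprague-Dawley share is not known. At 9 weeks of age, virgin Cdkn1b+/+ and Cdkn1b-/- rats gave 2 libraries per genotype, numbered 1 and 2, of each of 4 populations: basal cells (Cd24+ Cd29high), mature luminal cells (Cd24+ Cd29low, Cd49b- PNA-), and luminal progenitors (LP) sorted by the integrin Cd49b or by the lectin peanut agglutinin (PNA+). The paper gives the cycle stage (diestrus or metestrus) under its serum hormone measurements, and the labels give none for these libraries. At 4 weeks there were 3 luminal libraries per genotype, 3 Cdkn1b+/+ basal libraries and 2 Cdkn1b-/- basal libraries. At 6 weeks there were 2 luminal libraries per genotype, 3 Cdkn1b+/+ basal libraries and 2 Cdkn1b-/- basal libraries. The E2 experiment held luminal and basal libraries of ACI females (2 control and 2 E2 libraries of each cell type). It also held those of Brown Norway (BN) females (1 control and 1 E2 library of each cell type). The labels give no genotype, age or dose. For its estrogen treatment the paper describes implants, empty or with E2, set in ACI and BN rats aged 9 weeks and active for 3 weeks. The titles of the BN libraries carry a pair of animal numbers, so each may be a pool. The labels do not say that libraries 1 and 2 of 9 weeks are separate animals, so p-values measure the spread between these libraries.

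Milk proteins are made by alveolar luminal cells, and their genes are switched on in pregnancy by prolactin acting through the prolactin receptor and the transcription factor Stat5, together with glucocorticoids and the luminal factor Elf5. Caseins carry calcium and phosphate into milk as micelles, while whey proteins stay in solution. In a virgin gland they are low compared with lactation, and basal (myoepithelial) cells, which contract to expel milk, are not known for making them.

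The caseins form a cluster on rat chromosome 14, where the RefSeq gene table of GRCr8 gives the order Csn3, Fdcsp, Odam, Prr27, Csn1s2b, Csn1s2a, Stath, Csn2, Csn1s1. Wap lies elsewhere on chromosome 14, and Lalba and Glycam1 lie on chromosome 7. The 250 bases before the start of each of the 8 genes were read from RefSeq (GRCr8) and searched on both strands for TTCNNNGAA, the letters of the GAS element that Stat5 binds. Csn1s1, Csn1s2a, Csn1s2b, Csn2 and Glycam1 held a match, and Csn3, Wap and Lalba did not, so 5 of 8 windows matched against 7.67% of all 33469 windows of this length. The palindrome of nuclear factor I, another factor of milk protein promoters, was found in 1 of 8 windows, that of Csn3, against 8.28% of all windows. A match describes the letters and not a bound site. A gene without a match may still hold these letters outside the 250 bases searched. Only the 5 windows with a match are shown. They are written 5′ to 3′ on the gene's strand with the match in capitals, and lie at chr14:20638850-20639099 (minus strand), chr14:20574472-20574721 (minus), chr14:20545619-20545868 (minus), chr14:20601574-20601823 (plus) and chr7:136561300-136561549 (minus), all in GRCr8:
Csn1s1: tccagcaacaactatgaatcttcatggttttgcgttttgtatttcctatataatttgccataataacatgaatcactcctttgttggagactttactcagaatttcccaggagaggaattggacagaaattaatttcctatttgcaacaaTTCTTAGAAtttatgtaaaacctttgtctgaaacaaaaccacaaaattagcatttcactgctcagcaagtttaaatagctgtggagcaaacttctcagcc
Csn1s2a: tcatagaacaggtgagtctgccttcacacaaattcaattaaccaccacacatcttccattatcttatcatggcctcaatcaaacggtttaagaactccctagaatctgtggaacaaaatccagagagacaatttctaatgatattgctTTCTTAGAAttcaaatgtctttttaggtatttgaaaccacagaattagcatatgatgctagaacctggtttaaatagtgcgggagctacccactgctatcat
Csn1s2b: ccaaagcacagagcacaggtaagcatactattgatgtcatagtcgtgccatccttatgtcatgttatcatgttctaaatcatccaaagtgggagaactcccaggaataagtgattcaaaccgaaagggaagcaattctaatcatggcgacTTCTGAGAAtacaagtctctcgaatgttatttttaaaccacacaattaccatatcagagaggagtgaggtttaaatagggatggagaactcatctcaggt
Csn2: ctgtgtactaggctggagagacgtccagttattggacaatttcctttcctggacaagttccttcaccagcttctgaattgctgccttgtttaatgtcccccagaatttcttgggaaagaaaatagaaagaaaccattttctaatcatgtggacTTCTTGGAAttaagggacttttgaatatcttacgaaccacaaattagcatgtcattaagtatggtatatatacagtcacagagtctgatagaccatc
Glycam1: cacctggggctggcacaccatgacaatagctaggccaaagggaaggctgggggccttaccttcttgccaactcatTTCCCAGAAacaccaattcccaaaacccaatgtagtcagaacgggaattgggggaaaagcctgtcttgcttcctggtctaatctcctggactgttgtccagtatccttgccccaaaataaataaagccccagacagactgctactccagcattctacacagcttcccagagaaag
In the 4 caseins the match began 97 to 102 bases before the start, and in Glycam1 it began 175 bases before it.

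Library depth ran from 7985619 to 33859550 counts on genes, and values are CPM, counts per 1000000 counts on genes, unless stated otherwise. At 9 weeks Cdkn1b itself had 1.6 to 4.24 CPM in Cdkn1b-/- libraries and 6 to 18 CPM in Cdkn1b+/+ libraries, with no overlap. At 4 weeks Cdkn1b-/- libraries also lay below Cdkn1b+/+ libraries, in luminal cells (4.3 to 15.2 against 15.6 to 18 CPM, barely apart) and in basal cells (8.84 and 12.9 against 16.7 to 43.9 CPM). At 6 weeks they did so in luminal cells (12.3 and 30.1 against 31.4 and 46.3 CPM) but overlapped in basal cells, where Cdkn1b+/+ basal 3 had 3.13 CPM. No test of Cdkn1b at these younger ages passed (adjusted p from 0.79 to 1, edgeR). At 9 weeks it passed in LP (adjusted p = 0.0021, edgeR) but not in mature luminal (0.27) or basal cells (0.21). The summed level of 10 basal markers was 22788 to 37698 CPM in 9-week basal libraries and 322 to 3801 CPM in the luminal populations. Hormone-sensing luminal markers, which define mature luminal cells, were not higher there: their sum was 201 and 241 CPM in Cdkn1b+/+ mature luminal libraries and 426 to 628 CPM in Cdkn1b+/+ LP libraries, and Tnfsf11, 1 of the 7 markers, was at 0 in all 48 libraries. Elf5, Kit, Aldh1a3 and Cd14, markers of progenitors and alveolar cells, summed to 754 and 1580 CPM in those mature luminal libraries and to 410 to 1092 CPM in those LP libraries. The libraries are named below by their sort label.

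The 8 genes took up between 0.00129% and 19.8% of a library's gene counts. In LP of 9 weeks the share was 14.2% ± 4.28 (SD, n = 4) where Cdkn1b was deleted and 4.29% ± 2.48 (SD, n = 4) in wild-type libraries. The lowest Cdkn1b-/- library (10.7%) lay above the highest Cdkn1b+/+ library (7.25%). These 4 libraries are the Cd49b+ and PNA+ gates of numbers 1 and 2. Over all genes tested, gates of one number deviated together (r = 0.803 in Cdkn1b+/+, 0.629 in Cdkn1b-/-), so the SD is not that of 4 separate samples. Mature luminal libraries held 14% ± 4.38 (SD, n = 2) and 6.22% ± 3.27 (SD, n = 2), and basal libraries 2.9% ± 0.53 (SD, n = 2) and 0.592% ± 0.204 (SD, n = 2). Luminal libraries of 4 weeks held 0.55% to 1.95%, and basal libraries of 4 weeks 0.00459% to 0.0123%. The 2 Cdkn1b+/+ luminal libraries of 6 weeks held 0.205% and 0.46%, and the 2 Cdkn1b-/- ones 1.08% and 3.46%. In the E2 experiment, luminal libraries held 1.11% and 9.37% (ACI) and 6.03% (BN) with E2, against 0.533%, 0.708% (ACI) and 0.236% (BN) without. These are bulk libraries, in which fewer cells of a type and less RNA per cell cannot be told apart.

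**Figure D1:**
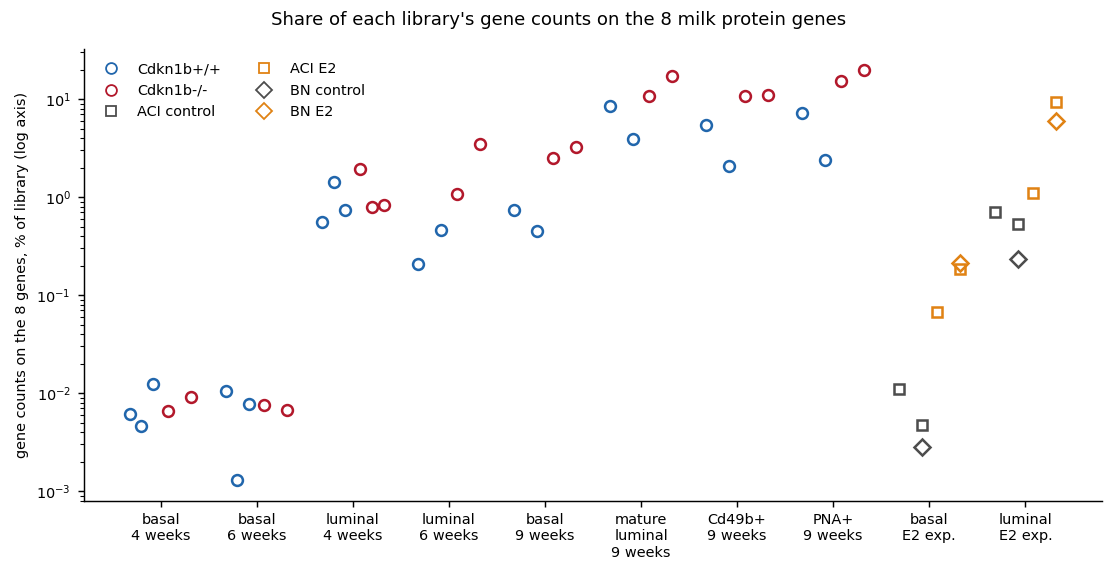
Each point is 1 library, and the vertical log axis gives the percent of its gene counts on the 8 milk protein genes. Basal libraries of 4 and 6 weeks lie near or under 0.01%, luminal libraries of 9 weeks lie between 2.09% and 19.8%, and E2 libraries lie above control libraries of the same cell type.

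Among the 8 genes, Wap and the minor casein Csn1s2b passed the test between genotypes in LP of 9 weeks, and both were higher in Cdkn1b-/-. Wap, the whey acidic protein of rodent milk, had 1201 and 715 CPM in Cdkn1b-/- Cd49b+ libraries 1 and 2 and 2250 and 1828 CPM in the PNA+ libraries, against 95.1, 115, 157 and 127 CPM in the Cdkn1b+/+ libraries in the same order. The groups did not overlap, with a difference of 3.97 on the log2 scale (SE, the standard error, 0.39; adjusted p = 0.00022 in the quasi-likelihood test of edgeR, corrected by Benjamini and Hochberg over 12809 genes). Csn1s2b had 205, 179, 266 and 258 CPM in Cdkn1b-/- LP against 128, 131, 165 and 135 CPM in Cdkn1b+/+ LP, again without overlap but with a smaller difference. This came to a log2 fold change of 1.04 (SE 0.21, adjusted p = 0.018 by edgeR). These 2 of 8 genes compare with 3.4% of all genes called in this comparison. Csn1s2b was no longer called when any of 5 of the 8 LP libraries was left out (adjusted p from 0.057 to 0.068, edgeR), whereas Wap remained called without any 1 of them. With PNA+ and Cd49b+ libraries of one number summed, which leaves 2 samples per genotype, neither was called (adjusted p = 0.14 for Wap and 0.58 for Csn1s2b, edgeR), at log2 fold changes of 3.89 and 1.

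None of the other 4 caseins passed the test in LP, and 3 of them spread widely among the Cdkn1b+/+ libraries. Csn2, or beta-casein, had 45458, 78932, 72696 and 136786 CPM in Cdkn1b-/- LP (Cd49b+ 1 and 2, PNA+ 1 and 2) against 15716, 1011, 22030 and 1346 CPM in Cdkn1b+/+ LP. All 4 Cdkn1b-/- libraries lay above all 4 Cdkn1b+/+ libraries, yet the log2 fold change of 3.38 had an SE of 1.09 (adjusted p = 0.11, edgeR). Csn3, or kappa-casein, which stabilises the micelle, had 36171, 12778, 43418 and 25530 CPM against 14449, 12079, 18709 and 14053 CPM, with overlap (log2 fold change 1.37, SE 0.43, adjusted p = 0.099, edgeR). Csn1s1, an alpha-casein, had 8518 to 14057 CPM in Cdkn1b-/- LP, inside the Cdkn1b+/+ range of 3527 to 16537 CPM (log2 fold change 0.67, SE 0.53, adjusted p = 0.55, edgeR). Csn1s2a had 1108 to 2929 CPM against 14.1 to 1366 CPM (log2 fold change 2.07, SE 1.41, adjusted p = 0.47, edgeR). The calcium-sensitive caseins Csn1s2a and Csn1s2b are related in sequence, and reads that align to more than 1 place were left uncounted, so the counts of each are uncertain to that extent.

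Of the whey proteins, Lalba, or alpha-lactalbumin, the subunit that turns galactosyltransferase into lactose synthase, had 7799, 1015, 11090 and 2854 CPM in Cdkn1b-/- LP against 3108, 3893, 3982 and 4105 CPM. The Cdkn1b-/- values lay on both sides of the Cdkn1b+/+ values (log2 fold change 1.01, SE 0.74, adjusted p = 0.51, edgeR). Glycam1, a mucin-like milk glycoprotein, had 3940 to 14265 CPM in the 4 Cdkn1b-/- LP libraries against 5885, 77.9, 9537 and 96.8 CPM (log2 fold change 1.37, SE 1.32, adjusted p = 0.63, edgeR). Over the 8 genes the median log2 fold change was 1.37, all 8 were above 0, and the median over all genes tested was 0.0316. Wap, Csn1s2b and Csn2 were the 3 of 8 whose Cdkn1b-/- LP libraries were all higher, against 3.04% of all genes. At an unadjusted p under 0.05 there were 4 of 8, with Csn2 and Csn3 added, beside 18.3% of all genes. DESeq2 also called 4 of 8, beside 8.56% of all genes.

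**Figure D2:**
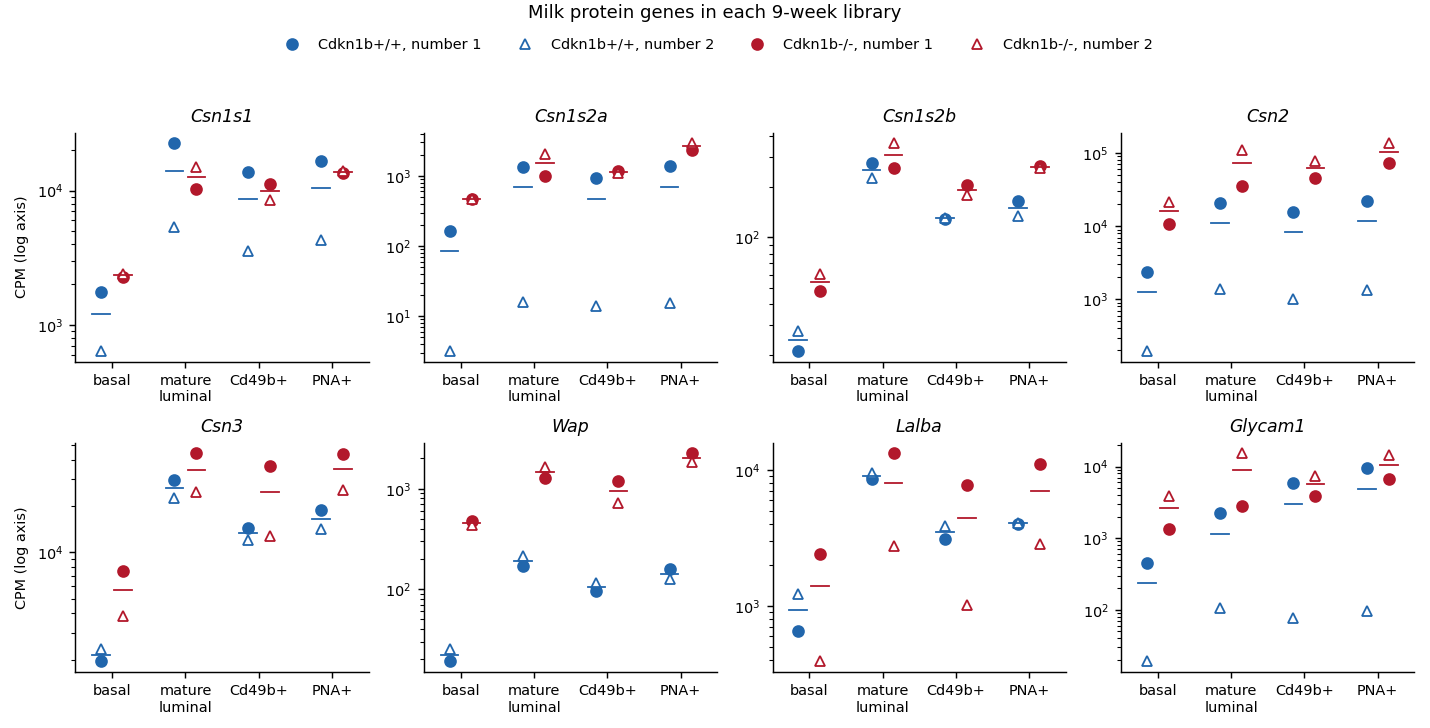
Each panel is 1 gene, with CPM on a log axis for each 9-week library by sorted population; filled circles are number 1, open triangles number 2, blue Cdkn1b+/+, red Cdkn1b-/-, and bars the means of 2. Wap separates the genotypes in all 4 populations, while in Cdkn1b+/+ rats Csn1s2a, Csn2 and Glycam1 separate number 1 from number 2.

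In mature luminal cells Wap was the 1 member of 8 called, beside 0.133% of all genes. It had 1279 and 1657 CPM in Cdkn1b-/- against 168 and 215 CPM in Cdkn1b+/+ libraries (log2 fold change 3.08, SE 0.53, adjusted p = 0.04, edgeR), and leaving out any of the 4 libraries ended the call (adjusted p from 0.11 to 0.31). The remaining 7 had log2 fold changes from 0.05 (Csn1s1) to 3.11 (Glycam1) with adjusted p of 0.77 or more. Without overlap and higher in Cdkn1b-/- were 3 of 8 (Wap, Csn2 and Glycam1), where 8.83% of all genes were. Lalba had 13308 and 2767 CPM in Cdkn1b-/- on either side of 8558 and 9498 CPM in Cdkn1b+/+ libraries.

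In basal cells Wap was again the 1 of 8 called, beside 0.0546% of all genes, with 476 and 433.5 CPM in Cdkn1b-/- against 19.1 and 25.4 CPM in Cdkn1b+/+ libraries (log2 fold change 4.59, SE 0.57, adjusted p = 0.0063, edgeR). The call ended without Cdkn1b-/- basal 2 (adjusted p = 0.061), Cdkn1b+/+ basal 1 (0.21) or Cdkn1b+/+ basal 2 (0.052). Csn1s2b had 47.8 and 60.3 against 21.1 and 28 CPM (log2 fold change 1.38, adjusted p = 0.18, edgeR), and Csn2 had 10674 and 21204 against 2350 and 196 CPM (log2 fold change 3.94, adjusted p = 0.46, edgeR). Both Cdkn1b-/- libraries lay above both Cdkn1b+/+ libraries for 7 of 8 genes, Lalba being the exception, where 11.1% of all genes did so. DESeq2 called 2 of 8 here, beside 1.31% of all genes, and 1 of 8 in mature luminal cells, beside 1.28%. The genotype difference was not shown to depend on the population. By edgeR the contrast of LP with basal cells called 0 of 8 (0% of all genes, lowest adjusted p 0.87). That of LP with mature luminal cells also called 0 of 8 (0% of all genes). At an unadjusted p under 0.05 there were 0 of 8 in both, beside 7.23% of all genes against basal and 1.75% against mature luminal cells. DESeq2 called 0 of 8 in both, beside 0.64% and 0% of all genes.

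The spread among the Cdkn1b+/+ libraries followed their number in all 4 populations, and it took some milk protein genes and not others. Csn1s2a was 51.7 to 88.5 times, Glycam1 21.2 to 98.5 times, Csn2 12 to 16.4 times and Csn1s1 2.76 to 4.24 times higher in number 1 than in number 2. Wap, Csn1s2b, Csn3 and Lalba stayed between 0.529 and 1.33 times. Csn2 can serve as the example: 15716, 22030, 20609 and 2350 CPM in number 1 (Cd49b+, PNA+, mature luminal and basal) and 1011, 1346, 1365 and 196 CPM in number 2. Of 10691 genes tested with a mean above 1 CPM in Cdkn1b+/+ libraries, 7 were more than 10 times higher in number 1 in all 4 populations (0.0655%), and Csn1s2a, Csn2 and Glycam1 were 3 of these 7. The other genes, named after their values were seen, were the fatty acid binding protein Fabp3 and the replication genes Chaf1b, Dscc1 and Mcm5. In the opposite direction there were 8 genes, none a milk protein gene, among them Lcn2. The Cdkn1b-/- libraries differed by number in another way: Lalba was 3.89 to 7.68 times and Csn3 1.7 to 2.83 times higher in number 1, Csn2 was 1.74 to 3.04 times and Glycam1 1.85 to 5.35 times higher in number 2, and no member differed by more than 10 times in all 4 populations. With 1 library of each number in a population, these ratios have no test, and the numbers of the genotypes are not known to correspond.

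**Figure D3:**
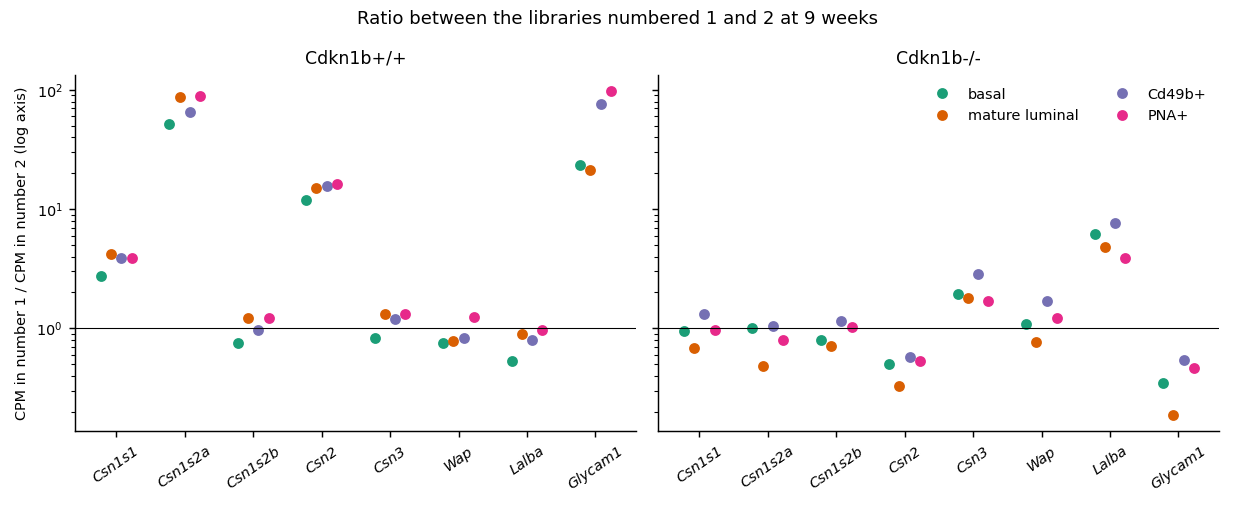
CPM in the library numbered 1 divided by CPM in the library numbered 2, on a log axis, for each gene and 9-week population (colours), with Cdkn1b+/+ on the left and Cdkn1b-/- on the right; the line marks equal levels. In Cdkn1b+/+ rats the points of Csn1s2a, Csn2 and Glycam1 lie above 10 in all 4 populations, while Wap, Csn1s2b, Csn3 and Lalba lie around 1.

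Between populations of 9 weeks, all 8 genes were higher in LP than in basal cells by log2 fold changes of 1.94 to 4.05 in Cdkn1b+/+ and 1.63 to 2.44 in Cdkn1b-/- rats. The same 4 genes passed the test in each genotype, Wap, Csn1s1, Csn1s2b and Csn3, against 30.9% of all genes in Cdkn1b+/+ and 36.3% in Cdkn1b-/- rats. In Cdkn1b+/+ their log2 fold changes were 2.41 (adjusted p = 0.0024), 2.95 (0.01), 2.44 (9.4e-05) and 2.72 (0.0041), and in Cdkn1b-/- 1.79 (0.0088), 2.39 (0.022), 2.11 (0.00017) and 2.44 (0.0057), all by edgeR. Libraries of one genotype and number deviated together, so genotype and number were also fitted as a block, and all 8 genes were then called in each genotype, beside 50% of all genes in Cdkn1b+/+ and 53.3% in Cdkn1b-/- rats. Some of the unblocked calls in each genotype ended when a basal library was left out, which leaves 1 basal library in that genotype.

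LP and mature luminal cells were closer. In Cdkn1b+/+ rats Csn1s2b was lower in LP (128 to 165 CPM) than in mature luminal libraries (275 and 224 CPM), with a log2 fold change of -1.06 (SE 0.25, adjusted p = 0.023, edgeR). That was 1 of 8, beside 11% of all genes, and it was lost when any of 5 libraries was left out. With genotype and number as a block, Csn1s1, Csn3 and Lalba were called too, 4 of 8 in all, each lower in LP, beside 34.4% of all genes. In Cdkn1b-/- rats 0 of 8 and 0% of all genes were called by edgeR. At an unadjusted p under 0.05 there were 0 of 8, beside 17.6% of all genes. DESeq2 called 0 of 8, beside 4.72% of all genes, and the block 0 of 8, beside 1.78%. PNA+ libraries were higher than Cd49b+ libraries for all 8 genes by log2 fold changes of 0.41 to 0.98. The edgeR test called 0 of 8 and 0% of all genes, and DESeq2 0 of 8, beside 0.35%. At an unadjusted p under 0.05 there were 2 (Wap and Csn1s2b), beside 3.05% of all genes. Within genotype and number, PNA+ exceeded Cd49b+ in 4 of 4 pairs for each of the 8 genes, by ratios from 1.03 (Csn1s2b) to 2.81 (Lalba), where 6.75% of all genes were higher in all 4 pairs. With genotype and number as a block, 0 of 8 and 0% of all genes were called (adjusted p from 0.17 to 0.23, edgeR).

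Basal libraries of 9 weeks still held milk protein counts. Taken over group means, basal CPM was 5.98% to 24.8% of LP CPM in Cdkn1b+/+ (median 14.5% over 8 genes) and 19.1% to 32.7% in Cdkn1b-/- rats (median 24.2%). Against mature luminal cells the medians were 11% and 20.2%. Luminal markers, such as keratins Krt8 and Krt18, stood in basal libraries at 32.7% and 38.8% of their LP sum, above every one of the 8 genes. Against mature luminal cells of Cdkn1b-/- rats 2 of the 8 lay above the luminal markers (29.7%), and 4 of 8 did so in number 1 alone (25.8%). The LP comparison also varied by marker, since by number Krt8 stood at 48.7% to 82.4% and Krt18 at 12.6% to 32.1%. The share of Elf5, chosen after its values were seen, was 15.3% and 23.3%. Basal markers in LP came to 3.39% and 3.81% of their basal sum. The ratio of number 1 to number 2 in basal libraries (51.7 for Csn1s2a, 12 for Csn2) lay near that in the Cdkn1b+/+ luminal populations (65.4 to 88.5 and 15.1 to 16.4). For Glycam1 it was 23.4 in basal, 21.2 in mature luminal, 75.6 in Cd49b+ and 98.5 in PNA+ libraries. Whether luminal cells or their RNA were present in the basal sort was not tested.

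At 4 weeks the same share was far lower. By animal, the median over the 8 genes was 0.358% to 0.922% of the luminal level (5 animals), while luminal markers stood at 15.1% to 23% and Elf5 at 0% to 3.27%. At 6 weeks the medians were 0.159% to 4.71% (4 animals) with luminal markers at 23.8% to 57.4%. In the E2 experiment they were 0.183% to 14.4% (6 pairs) with luminal markers at 1.4% to 23.1%. In 1 animal of 6 weeks and 2 pairs of the E2 experiment the median leaves out genes with 0 luminal counts. The largest single value was Glycam1 in the Cdkn1b-/- animal of 6 weeks whose basal library is number 1, where basal cells had 34.4 CPM and luminal cells 1.29 CPM. Both luminal references at 9 weeks are narrower gates than at 4 weeks. Their medians in Cdkn1b+/+ and Cdkn1b-/- rats were 14.5% and 24.2% for LP, and 11% and 20.2% for mature luminal cells. The part of age and of gate in the difference was not tested.

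**Figure D4:**
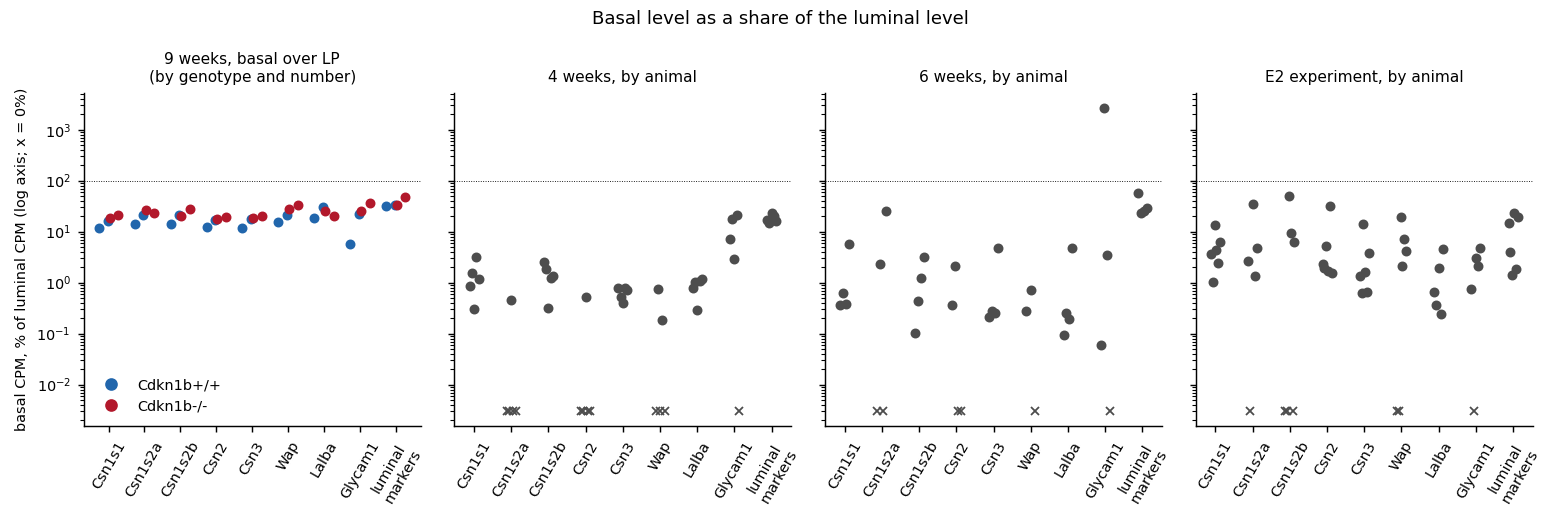
Basal CPM as a percent of luminal CPM on a log axis for each gene and for the summed luminal markers, with 1 point per number at 9 weeks and 1 per animal elsewhere; crosses at the bottom mark 0% and the dotted line 100%. At 9 weeks, where basal is set against LP, the 8 genes lie between 5.8% and 36.2%, and at 4 weeks the genes other than Glycam1 lie at 3.19% or less while the luminal markers lie between 15.1% and 23%.

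At 4 weeks of age every one of the 8 genes was called higher in luminal than in basal cells (8 of 8, beside 37% of all genes). Their log2 fold changes by edgeR were 6.56 for Csn1s1, 6.47 for Csn1s2b, 7.39 for Csn3 and 7.2 for Lalba, with adjusted p of 9.2e-07, 2.9e-07, 1.7e-07 and 9.2e-08, and 3.59 for Glycam1 (adjusted p = 0.011). Lalba had 3039 to 13922 CPM in the 6 luminal libraries (median 4975) and 15.1 to 49.1 CPM in the 5 basal libraries. Fitted changes of the genes that were nearly absent from basal cells depend on the prior count, so their counts are given instead. Csn1s2a had 3 counts in all 5 basal libraries together, Wap 5 and Csn2 10. The luminal mean over that pooled basal level was 377 for Csn1s2a (95% exact Poisson interval 129 to 1828, covering counting error of the basal counts only), 757 for Wap (324.5 to 2332) and 257 for Csn2 (140 to 536.5). All 8 were also called with the animal as a block and without any 1 library.

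At 4 weeks no gene passed the test between genotypes. In luminal cells 0 of 8 and 0% of all genes were called, with 1 (Lalba) at an unadjusted p under 0.05, as 3.6% of all genes were, and 0 by DESeq2. Lalba had 13922, 5304 and 4745 CPM in Cdkn1b-/- and 3039, 5205 and 3773 CPM in Cdkn1b+/+ libraries, with overlap (log2 fold change 1.23, SE 0.5, adjusted p = 0.85, edgeR). Wap, called in all 3 cell types of 9 weeks, had 70.1, 15.8 and 25.9 CPM in Cdkn1b-/- and 30.3, 65.4 and 29.5 CPM in Cdkn1b+/+ libraries (log2 fold change 0.06, SE 0.6, adjusted p = 0.99, edgeR). In basal cells 0 of 8 and 0% of all genes were called, with 1 (Csn1s2b, 7 to 47 counts a library) at an unadjusted p under 0.05, as 2.57% of all genes were, and 0 by DESeq2. Csn1s2b (1.65 and 2.71 against 0.368 to 1.12 CPM) and Lalba (41.7 and 49.1 against 15.1 to 40.4 CPM) were higher in Cdkn1b-/- basal libraries without overlap, 2 of 8 where 3.19% of all genes were.

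The 8 genes stood differently against their 9-week levels. Lalba in 4-week luminal libraries (3039 to 13922 CPM) covered much the same range as in LP of 9 weeks (1015 to 11090 CPM), and Csn1s2b (70.5 to 285 CPM) overlapped it too (128 to 266 CPM). Csn1s1 (1630 to 5369 CPM) overlapped the lower LP libraries (3527 to 16537 CPM). Csn1s2a, with 1.91 to 34.3 CPM at 4 weeks against 14.1 to 2929 CPM in LP, overlapped through the Cdkn1b+/+ libraries numbered 2. Csn2 did not overlap, with 1.77 to 101 CPM at 4 weeks and 1011 to 136786 CPM in LP of 9 weeks, and neither did Glycam1 (0.273 to 3.86 against 77.9 to 14265 CPM), Csn3 (595 to 3367 against 12079 to 43418 CPM) or Wap (15.8 to 70.1 against 95.1 to 2250 CPM). No test was fitted, since LP and luminal cells come from different gates.

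At 6 weeks, 5 of 8 genes were called higher in luminal than in basal cells, beside 4.94% of all genes: Csn1s1 (log2 fold change 6.41, adjusted p = 0.0048), Csn1s2b (7.79, 0.0026), Csn2 (8.89, 0.011), Csn3 (7.66, 0.0052) and Lalba (7.62, 0.0058), by edgeR. Wap, Csn1s2a and Glycam1 had adjusted p of 0.11 to 0.14. Csn2 was not called without Cdkn1b-/- luminal 2 (adjusted p = 0.074). In the Cdkn1b-/- luminal libraries 1 and 2, Lalba had 5639 and 14946 CPM against 309 and 860 CPM in Cdkn1b+/+, Csn1s1 had 3613 and 7521 against 667 and 1220 CPM, Csn1s2b had 118 and 337 against 7.48 and 29.6 CPM, and Wap had 31.4 and 329 against 0 and 12 CPM. These 4 of 8 did not overlap and were higher in Cdkn1b-/-, where 23.3% of all genes did so, and Csn1s2a was lower without overlap (6.34 and 3.23 against 6.67 and 12.9 CPM), where 24.9% of all genes were lower. The edgeR test called 0 of 8 and 0% of all genes between genotypes, with log2 fold changes of 4.35 for Lalba (SE 1.11, adjusted p = 0.15) and 3.82 for Csn1s2b (SE 1.05, adjusted p = 0.16). At an unadjusted p under 0.05 there were 5 of 8, beside 16.4% of all genes, and DESeq2 called 3, Csn1s1, Csn1s2b and Lalba, beside 11.2%.

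Among the luminal libraries of 6 weeks, Cdkn1b-/- luminal 2 stood apart. Cdkn1b-/- luminal 1, whose title may give a younger age, had 6.91 CPM of Csn2 and 1.29 CPM of Glycam1. Cdkn1b-/- luminal 2 had 1246 CPM of Csn2 and 578 CPM of Glycam1. The same library had 7006 CPM of adipocyte markers, with 4 of the 6 genes at 0, and 3076 CPM of fibroblast markers, against 15 to 128.5 and 16.6 to 117 CPM in the other 6-week luminal libraries. It had 9241 genes with counts where those had 10956 to 12761, and 1849 CPM of Krt8 where those had 4633 to 6391. Rows that name no gene held 76.2% of its file, against 61.7% to 70.6%. The part of all this in its milk protein values was not tested. Without it 0 of 8 were called, and without Cdkn1b-/- luminal 1 the count was 4 (Csn1s2b, Csn2, Lalba and Glycam1), beside 17.9% of all genes. In basal cells of 6 weeks edgeR called 0 of 8 and 0% of all genes between genotypes, and DESeq2 0 of 8, beside 2.77%. At an unadjusted p under 0.05 there were 2 (Csn2 and Glycam1), beside 8.99% of all genes. The same 2 of 8 were higher in Cdkn1b-/- without overlap, where 29.4% of all genes were. Csn2 was at 0 counts in the 3 Cdkn1b+/+ basal libraries and had 2 and 65 counts in the Cdkn1b-/- ones. Between 6 and 4 weeks, Cdkn1b+/+ luminal cells showed 0 of 8 called, beside 3.1% of all genes, with 2 at an unadjusted p under 0.05 (20.7% of all genes) and 2 by DESeq2 (Csn1s2b and Lalba, beside 13.1% of all genes). Lalba had 309 and 860 CPM at 6 weeks and 3039 to 5205 CPM at 4 weeks, without overlap (log2 fold change -2.72, SE 0.85, adjusted p = 0.082, edgeR).

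In the E2 experiment the caseins Csn1s2a, Csn1s2b and Csn2 and the whey protein Glycam1 were higher in all 3 E2 than in all 3 control luminal libraries, 4 of 8 genes where 4.84% of all genes were. Csn2 had 5857 and 56979 CPM (ACI) and 24060 CPM (BN) with E2, against 228 and 903 CPM (ACI) and 32.8 CPM (BN) in controls. Glycam1 had 3647 and 13377 CPM (ACI) and 539 CPM (BN) against 63.6, 364 and 0 CPM, and Csn1s2a had 115 and 3811 CPM (ACI) and 893 CPM (BN) against 3.25, 21.8 and 0 CPM. With strain as a term, edgeR called 0 of 8 and 0% of all genes, with log2 fold changes of 6.82 for Csn2 (SE 1.64, adjusted p = 1) and 3.83 for Wap (SE 1.13, adjusted p = 1). At an unadjusted p under 0.05 there were 5 of 8, beside 3.45% of all genes, and DESeq2 called 4, Wap, Csn1s2a, Csn2 and Glycam1, beside 1.03% of all genes. Csn1s1, Csn3 and Wap overlapped through ACI E2 luminal 1, which had 913, 468 and 41.7 CPM where ACI E2 luminal 2 had 7045, 10996 and 810 CPM.

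Lalba was nearly absent in 1 animal. ACI E2 luminal 1 had 0 counts of Lalba among 80002 counts of Csn2, and the basal library of the same animal had 1 count, while ACI E2 luminal 2 had 634 CPM, BN E2 luminal 4644 CPM and the 3 control luminal libraries 559 to 1015 CPM. A count of 0 in that library allows up to 0.22 CPM. Csn3 in the same luminal library also lay below the 3 controls (468 against 1164 to 4758 CPM). ACI E2 luminal 1 also had 6689 CPM of fibroblast markers and 928 CPM of adipocyte markers, against 234 and 22 CPM in ACI E2 luminal 2. It had 9184 genes with counts, where the other luminal libraries of the experiment had 10011 to 12836. The part of this in these values was not tested. Over E2 and control libraries the log2 fold change of Lalba was -0.39 (SE 2.37, adjusted p = 1, edgeR).

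In basal cells E2 libraries lay above control libraries for 7 of 8 genes, all but Lalba, where 3.92% of all genes did so. Csn2 had 309, 966 (ACI) and 376 CPM (BN) with E2 against 5.32, 17.6 and 10.5 CPM, and Csn1s2a had 40.4, 51.9 and 43.2 CPM against 2 counts in 1 of the 3 controls. Csn1s2b had 17.2, 8.69 and 8.02 CPM with E2 and 0 counts in the 3 controls, so it was at least 86.55-fold higher, taking 3 counts per control library as the floor. The edgeR test called 0 of 8 and 0% of all genes, with 6 of 8 at an unadjusted p under 0.05 (1.45% of all genes) and 6 by DESeq2 (0.807% of all genes). The basal libraries of the E2 experiment varied in their markers: luminal markers summed to 243 CPM in ACI E2 basal 1 with 4 of 12 at 0, and to 5588 and 5305 CPM in the other E2 basal libraries, against 4121, 1256 and 525.6 CPM in controls. In ACI E2 basal 1, 7 genes had a higher share of their luminal level (median 14.4%) than the luminal markers had (1.4%). The same library had 3086 CPM of basal markers, 56.3 CPM of them Krt14, and 7716 genes with counts, where the other basal libraries of the experiment had 7677 to 20746 CPM and 10131 to 12065 genes. BN E2 basal had 16612 CPM of fibroblast markers against 565 to 2749 CPM in the others. So 2 of the 3 E2 basal libraries stood apart, and the part of this in their milk protein values was not tested.

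**Figure D5:**
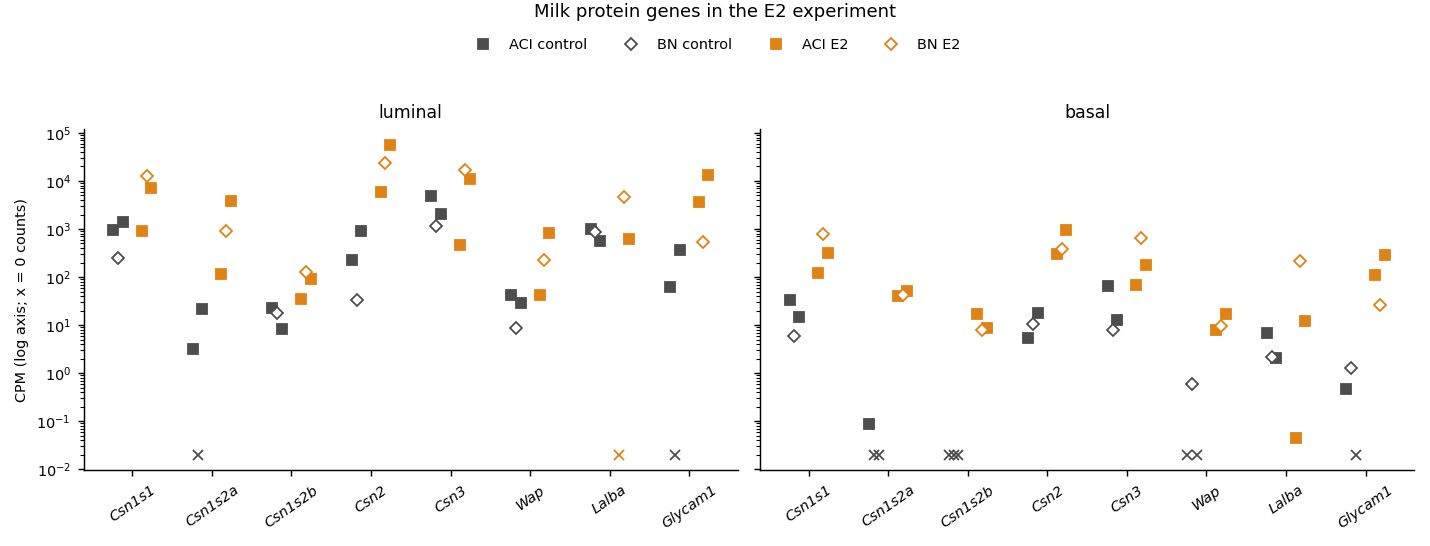
CPM on a log axis for each gene in luminal (left) and basal (right) libraries of the E2 experiment; grey is control, orange E2, filled squares ACI, open diamonds BN, and crosses libraries with 0 counts. E2 libraries lie above controls for Csn1s2a, Csn1s2b, Csn2 and Glycam1 in both cell types, and Lalba falls to 0 and 0.0445 CPM in the libraries of 1 ACI E2 animal.

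Strain made no difference that passed the test. Between ACI and BN, with treatment as a term, edgeR called 0 of 8 and 0% of all genes in luminal cells and in basal cells. In luminal cells 0 of 8 had an unadjusted p under 0.05 (4.03% of all genes), and DESeq2 called 1, Glycam1 (3.15% of all genes). In basal cells these counts were 0 (0.742% of all genes) and 0 (0.163% of all genes). The log2 difference of ACI over BN in luminal cells was 5.24 for Glycam1 (SE 2.31, adjusted p = 0.99) and -2.93 for Lalba (SE 2.5, adjusted p = 0.99), by edgeR. The E2 effect in ACI against that in BN luminal cells called 0 of 8 and 0% of all genes, with 1 at an unadjusted p under 0.05 (5.71% of all genes) and 1 by DESeq2 (3.98% of all genes). Both were Glycam1 (log2 difference -11.7, SE 3.1, adjusted p = 0.85, edgeR, against a BN control at 0 counts). The edgeR count rose to 7, beside 20.9% of all genes, without ACI E2 luminal 2, when the lone ACI E2 library is assumed to vary like the ACI controls. Luminal cells of this experiment were higher than basal cells with strain and treatment as terms for 5 of 8 genes, beside 1.66% of all genes: Csn2 (log2 fold change 5.33, adjusted p = 0.014), Csn1s1 (4.94, 0.02), Csn3 (5.96, 0.022), Wap (5.83, 0.027) and Csn1s2a (5.84, 0.045), by edgeR. Wap and Csn1s2a were not called with the animal as a block (adjusted p = 0.072 and 0.075), while Lalba was. DESeq2 called 8 of 8, beside 13.6% of all genes. Without ACI Control basal 2, ACI E2 luminal 2 or the BN E2 luminal library 1 gene remained called, and without ACI E2 luminal 1 there were 7. The share of all genes called in these fits is not given, so the counts are not read as a result about the 8 genes.

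A list of 40 genes of secretory activation was read beside the milk proteins: the prolactin pathway, milk fat synthesis, transporters and other secreted proteins, of which 37 were tested at 9 weeks. Between genotypes in LP, 4 of 37 were higher in Cdkn1b-/-, beside 3.4% of all genes called in either direction, led by Pigr (log2 fold change 4.2, adjusted p = 3.2e-05), which carries immunoglobulin A across the epithelium, lactoperoxidase Lpo (3.19, 0.012) and transferrin Tf (2.06, 0.032), and 1 was lower, the prolactin receptor Prlr (-1.19, 0.029), by edgeR. The median log2 fold change over the list was 0.626, beside 0.0316 over all genes. Pigr was also the 1 gene of 37 called in mature luminal cells (3.13, 0.015), beside 0.133% of all genes, and in basal cells (3.93, 0.0063), beside 0.0546%. LP exceeded basal cells for 19 of 37 in Cdkn1b+/+ and 22 of 37 in Cdkn1b-/-, with 5 lower in each, beside 30.9% and 36.3% of all genes called. Led by size, Prlr (4.33, adjusted p = 2.6e-05 in Cdkn1b+/+), Cd36 (3.05, 0.0017) and Lpl (3.03, 5e-06) were higher, and Wfdc18 (-4.86, 0.01), Sult1d1 (-4.67, 0.0021) and Pthlh (-3.34, 0.00036) lower. In Cdkn1b+/+ rats 3 of 37 were higher and 4 lower in LP than in mature luminal cells, with Cd36 (3.29, 0.019) and lactoferrin Ltf (-6.39, 0.033) at the ends, beside 11% of all genes. At 4 weeks 22 of 35 were higher and 4 lower in luminal than in basal cells, beside 37% of all genes. The counts were 10 and 2 of 35 at 6 weeks, beside 4.94% of all genes, and 5 and 0 of 36 for E2 and control rats together, beside 1.66%. At 6 against 4 weeks 4 of 36 were lower in Cdkn1b+/+ luminal cells, beside 3.1% of all genes, with xanthine dehydrogenase Xdh (-3.72, 0.029), the lipogenic factor Thrsp (-3.44, 0.036) and aldolase Aldoc (-2.25, 0.031) the largest, and 0 of 36 were called for E2 in luminal or 0 of 32 in basal cells.

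Across the 48 libraries, the genes whose order was most like the mean log2 CPM of the 8 were Thrsp (Spearman's rho 0.925), the thioesterase Olah that ends milk fatty acids at medium length (0.906), pyruvate carboxylase Pc (0.896), Srebf1 (0.892) and Tf (0.889), out of 10216 genes ranked. These libraries share cell types and ages, so the values describe a common order and carry no test. Within the 12 luminal libraries of 9 weeks the likest were Psmd6 (0.972), Aacs, Bid and Mpzl1 (0.965 each) and Cmas (0.958). Among the 8 genes themselves in those 12 libraries, rho was 0.9 between Csn2 and Csn1s2a and 0.87 between Csn2 and Wap. Lalba had rho of -0.13 with Csn2, -0.37 with Glycam1 and 0.72 with Csn3. The 12 libraries come from 4 combinations of genotype and number.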

How the data were processed

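RNA was sequenced from 48 libraries of sorted rat mammary cells. Per the authors' methods and processing notes, reads were aligned to rn6 with STAR 2.5.1b and counted per refGene gene with HTSeq, and the deposited values are raw counts per gene. Rows that name no gene held 47.1% to 77% of each file and were left out. Counts were tested in edgeR 4.0.16 (R 4.3.3) by quasi-likelihood with TMM scaling and a filter on low counts, adjusted by the Benjamini-Hochberg method over all genes tested and called at 0.05. DESeq2 1.42.0 was an alternative. Groups came from the labels. Libraries of 9 weeks were fitted together, and each other experiment apart. Deviations of one genotype and number correlated between populations (r from 0.26 to 0.8, 12 pairs) but not between genotypes (-0.3 to 0.0014, 4 pairs), so number pairs populations within a genotype. The fits with genotype and number as a block were chosen after seeing the data. The members, marker lists and secretory list were chosen with earlier results of these data known; named genes are the 8 members and the leading called genes of that list. The fitting was run on simulated data with independent libraries and a fixed spread. Libraries that deviate together by number were not simulated. Promoter windows came from RefSeq. Intervals and floors cover counting error only.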

Additional observations from a re-analysis of the deposited data

How the results depend on the processing

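RLE scaling, no filter on low counts and a fold threshold moved no count of called genes by more than 1.5 times, and 97 of 2008 recomputed fold changes changed sign, 0 of them called in either fit. DESeq2 called 4 of 8 between genotypes in LP in place of 2, 2 in basal cells in place of 1, 3 in luminal cells of 6 weeks, 2 between 6 and 4 weeks, 4 and 6 for E2 in luminal and basal cells, 1 for strain in luminal cells and 1 for the E2 effect by strain, each in place of 0, and 8 between luminal and basal cells of the E2 experiment in place of 5. The genotype count in LP was 0 with PNA+ and Cd49b+ libraries summed, 1 with PNA+ alone and 0 with Cd49b+ alone, and that in mature luminal cells was 0 with the compared libraries alone. With 1 library left out, counts ran from 1 to 3 for genotype in LP, 0 to 0 in mature luminal and 0 to 1 in basal cells, 0 to 1 for LP against mature luminal Cdkn1b+/+, 1 to 5 for LP against basal Cdkn1b-/-, 0 to 4 for genotype at 6 weeks, 0 to 7 for the E2 effect by strain and 1 to 7 between luminal and basal cells of that experiment. The median basal share of LP was 24.19% in Cdkn1b-/- (21.65% scaled by TMM, 22.13% to 22.89% by number) and 14.48% in Cdkn1b+/+ (13.4% to 21.03% by number). Apart from the shares given in the Results, the share of all genes called under these alternatives is not given. The counts therefore only describe how the calls moved. The cause of these changes was not tested.

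With genotype and number as a replicate block, the LP against basal count was 8 in each genotype and the LP against mature luminal count in Cdkn1b+/+ was 4. Number alone as a block changed no genotype count (2 in LP, 1 in mature luminal and 1 in basal cells). That block pairs numbers across genotypes, which are not known to correspond, so it is no check on the genotype calls. Pairing by animal gave 8, 5 and 4 between luminal and basal cells at 4 weeks, at 6 weeks and in the E2 experiment. The share of all genes called with this pairing is not given, so these counts only describe how the calls moved. The files hold 0 mitochondrial genes, so counts without them could not be compared.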
